A study of Mus musculus with 40 samples.

Results

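Liver DNA methylation was compared between mice exposed to a high fat diet (HF) throughout life and mice exposed to a low fat diet (LF) throughout life. The members were chosen by the diet labels alone. They were the 10 animals whose dams and own food after weaning were both HF (HH) and the 10 animals for which both were LF (LL), that is 20 of the 40 mice of the series. The other 20 mice were 10 born from HF fed dams but fed LF themselves (HL) and 10 with the reverse history (LH), and they are described here only beside the former. Of the 400298 CpGs listed for the series, 262317 had a read total in 36 or more of the 40 mice, and these were analysed.

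All animals were male C57BL/6J mice of 9 weeks, an inbred strain that gains weight on high fat food. Dams were placed on their diet before mating and kept on it through lactation, and the male offspring of each cage were divided between HF and LF at weaning. HH and LL therefore differ in both diets at once, and the maternal and the post-weaning diet cannot be told apart in this comparison. The labels do not give the litter or cage of a mouse or the sequencing lane of its library, so littermates may stand within a group, and the p-values measure the spread between these animals. Runs of consecutive mouse numbers occurred in both groups. The analysis that took each run as 1 replicate is given for the count of CpGs and, at the end, for the named features together. All p-values printed for single features take each mouse as a replicate.

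DNA methylation is the addition of a methyl group to the cytosine of a CpG. In mammals most CpGs outside CpG islands are methylated, while CpG-rich promoters are mostly unmethylated, and at imprinted genes the allele inherited from a given parent carries the mark, so that intermediate levels are seen in bulk DNA. Reduced representation bisulfite sequencing (RRBS) reads fragments cut by MspI at CCGG, and the percentage of reads that keep a cytosine after bisulfite treatment is the methylation level of that CpG. A piece of liver holds hepatocytes, Kupffer cells, endothelial cells, stellate cells and bile duct cells, and a different level within a cell type cannot be told apart from a different mixture of cell types.

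The regions that carry most of what follows are 6 in number, and their reference sequence is shown so that the CpGs named later can be placed. All were read from build mm9 (NCBI37) on the plus strand, and capitals mark the CpGs that were tested. The first is the stretch of a coding exon of Scara5 that holds the CpG with the smallest p-value of all (chr14:66378470-66378533).
Scara5 exon: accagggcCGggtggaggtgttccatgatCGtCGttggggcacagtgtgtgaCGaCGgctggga
The second lies just upstream of the main start of the imprinted gene Igf2r (chr17:12962591-12962662).
Igf2r upstream: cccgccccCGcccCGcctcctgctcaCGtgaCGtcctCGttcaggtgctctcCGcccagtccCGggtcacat
The third is part of a coding exon of Gata4, in which all tested CpGs differed in the same direction (chr14:63859522-63859585).
Gata4 exon: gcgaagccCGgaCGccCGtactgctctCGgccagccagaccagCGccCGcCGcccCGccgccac
The fourth is the region in front of the noncoding gene Gm17721, with the smallest p-value among CpGs that had a value in all 20 mice (chr15:38314408-38314465).
Gm17721 region: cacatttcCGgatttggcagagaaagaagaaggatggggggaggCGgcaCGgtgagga
The fifth lies inside the imprinted gene Slc38a4 and was among the 3 bins with the largest differences towards more methylation in HH (chr15:96836157-96836260).
Slc38a4 region: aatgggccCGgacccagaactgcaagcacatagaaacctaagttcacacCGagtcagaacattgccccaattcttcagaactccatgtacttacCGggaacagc
The last is the fragment in front of Foxa2, a liver transcription factor gene (chr2:147872734-147872786).
Foxa2 promoter: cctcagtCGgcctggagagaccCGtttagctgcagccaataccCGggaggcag

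The reads at the analysed CpGs summed to 2489536 to 17272370 per mouse in HH and 3455469 to 13069468 in LL, where a read counts at each CpG it covers, and the totals did not differ beyond the spread between mice (permutation p = 0.614). A CpG was covered by a median of 12 to 54 reads in an HH mouse and 14 to 41 in an LL mouse. Up to 42.1% of values were missing in an HH mouse and up to 23.0% in an LL mouse. No pair of mice in a group agreed within the sampling noise of the reads. Single mice stood apart at several features. Mouse 122 (HH) had the most reads and the lowest mean methylation of the 20 animals, and mouse 52 (HH) lay apart from the other HH mice at the Scara5 exon.

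Averaged over the 34368 CpGs covered in all 40 mice, methylation was 39.3% ± 0.363 (SD, n = 10) in HH and 39.5% ± 0.133 (SD, n = 10) in LL. The HH mice ran from 38.4% to 39.7% (median 39.4%) and the LL mice from 39.4% to 39.7% (median 39.4%). The groups overlapped, 6 HH mice were below every LL mouse, and the lowest HH value was that of mouse 122. The difference of -0.144 percentage points (95% confidence interval -0.401 to 0.113) was within the spread between mice (permutation p = 0.279). Without mouse 122 it was -0.0430 (exact permutation p = 0.556). With the reads of all these CpGs pooled in each mouse, so that deeply covered CpGs weigh more, it was -1.92 (36.2% and 38.1%, permutation p = 0.203). Animals that changed diet at weaning were at 39.7% ± 0.164 (HL, SD, n = 10) and 39.6% ± 0.260 (LH, SD, n = 10).

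The same means were taken by annotation and by level. CpGs in promoters, from 1000 bp upstream to 500 bp downstream of an annotated start, averaged 7.47% ± 0.106 (SD, n = 10) in HH and 7.56% ± 0.0435 (SD, n = 10) in LL over 12834 CpGs. HH values ran from 7.24% to 7.59% and LL values from 7.51% to 7.63%, with 5 HH mice below all LL mice. This difference of -0.0951 percentage points (95% confidence interval -0.171 to -0.0191) had a permutation p of 0.00938, or an adjusted p of 0.0657 over the 7 classes compared. Without mouse 122 it was -0.0690 and the adjusted p was 0.122 (exact permutation test). Without mouse 124, 181 or 183, each from HH, the adjusted p was 0.0425, 0.0148 and 0.0343 (exact permutation test). These mice had the highest promoter means in HH, and in the other 17 of 20 runs without a mouse the adjusted p was not below 0.05. HL and LH averaged 7.54% and 7.57%. In exons outside promoters the means were 55.4% in HH and 55.6% in LL, in introns 58.3% and 58.6%, and between genes 60% and 60.1%. The adjusted p of these classes and of the 3 classes by methylation level (below 10%, 10 to 90%, 90% or more) ran from 0.479 to 0.855.

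**Figure D1:**
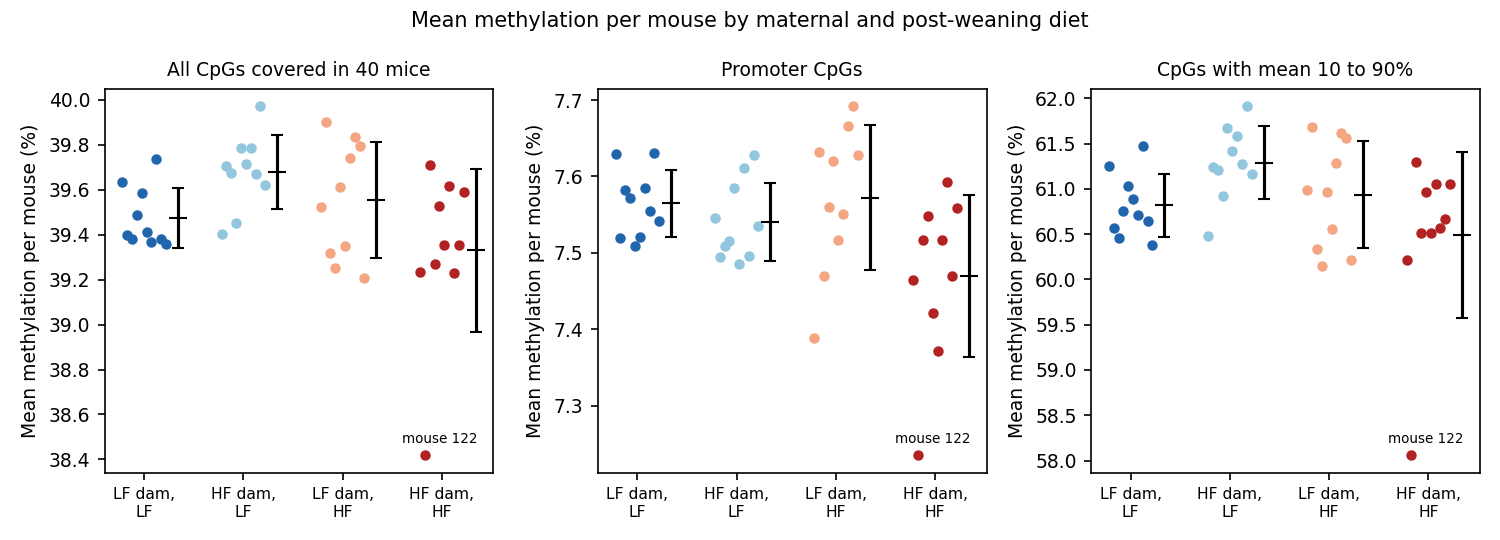
Mean methylation of each mouse in percent, over all 34368 CpGs covered in the 40 mice, over promoter CpGs and over CpGs with a mean from 10 to 90%, by maternal and post-weaning diet. Points are mice, bars are the mean ± SD of 10 mice, the vertical axes do not start at 0, and mouse 122 at 38.4% lies below the other HH mice, which run from 39.2% to 39.7%.

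The plot of means per mouse shows how small these differences are against the level itself, since all 20 animals lay between 38.4% and 39.7%. The mitochondrial CpGs, which should carry little methylation, averaged 2.38% in both groups over 13 CpGs. The 263 CpGs in the highest 0.1% of coverage, 200 of them on chromosome 17, were at 19.8% ± 3.81 (SD, n = 10) in HH and 16.6% ± 3.07 (SD, n = 10) in LL (permutation p = 0.0518). They were at 19.7% in HL and 20.3% in LH, and without mouse 122 the difference between HH and LL was 4.06 percentage points (exact permutation p = 0.00750).

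CpG by CpG, 238989 of the 262317 CpGs varied between the mice and were tested, and 0 had an FDR <5%. The smallest FDR was 0.540. An unadjusted p below 0.05 was reached by 9446 CpGs (3.95%), 4291 of them (1.80%) with higher and 5155 (2.16%) with lower methylation in HH. limma's moderated test also gave 0 CpGs at an FDR of 5%, with 11894 at unadjusted p below 0.05, the exact Wilcoxon test 0 with 8813, and the quasi-binomial model of the read counts 0 with 11279. With each run of consecutive mouse numbers averaged into 1 replicate, 0 CpGs passed, 8927 had an unadjusted p below 0.05, and the smallest FDR was 0.194. With a minimum of 20 reads per value, 2 of 111627 CpGs had an FDR <5%, near Cadm3 (chromosome 1, 175297314, -3.93 percentage points, FDR 0.0110) and near Hpdl (chromosome 4, 116497496, -4.65 percentage points, FDR 0.00239). Both differences were small, and neither CpG was called at the minimum of 10 reads.

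The direction of the CpGs at unadjusted p below 0.05 varied with their level. Among CpGs with a mean below 10%, 1605 were more and 1361 less methylated in HH, and from 10 to 30% there were 473 and 356. Among CpGs from 30 to 70% there were 483 more and 862 less methylated, from 70 to 90% 836 and 1278, and at 90% or more 894 and 1298. CpGs share fragments and mice, so these counts were not tested. In promoters 1206 were more and 1196 less methylated, in introns 1128 and 1545.

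Neighbouring CpGs were also averaged in bins of 1000 bp and in promoters. Of 30680 bins with at least 3 CpGs, 0 had an FDR <5% (smallest 0.464), while 1592 (5.19%) reached an unadjusted p below 0.05, 673 (2.19%) of them higher and 919 (3.0%) lower in HH. limma gave 0 bins with 1562 at unadjusted p below 0.05, and the exact Wilcoxon test 0 with 1460. Of 10565 promoters, 0 had an FDR <5% (smallest 0.213), while 533 (5.04%) reached an unadjusted p below 0.05, 259 (2.45%) higher and 274 (2.59%) lower. limma gave 0 promoters with 534 at unadjusted p below 0.05. The shares for bins and promoters are close to the 5% that a threshold of 0.05 gives without any difference. The share for CpGs ran from 3.61% to 6.65% (338 of 5084 CpGs, with a minimum of 30 reads) over the alternatives that kept all 20 mice.

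What the data could have shown was read from the confidence interval of each difference. The median half-width of the 95% interval was 5.23 percentage points for a CpG, 2.85 for a bin and 1.10 for a promoter. For 68.1% of CpGs, 89.3% of bins and 97.2% of promoters the whole interval lay within 10 percentage points of 0, and for 34.8%, 60.1% and 89.6% it lay within 5. CpGs from 30 to 70% methylated were the least precise, with a median half-width of 12.2 percentage points, against 2.60 below 10%. A difference of 10 percentage points at a single CpG of intermediate level was therefore often not detectable with these mice and reads. The intervals are not adjusted for the number of CpGs, so larger differences could also miss an FDR of 5%. At CpG 66378499 of the Scara5 exon a difference of -29.0 percentage points had an FDR of 0.540.

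**Figure D2:**
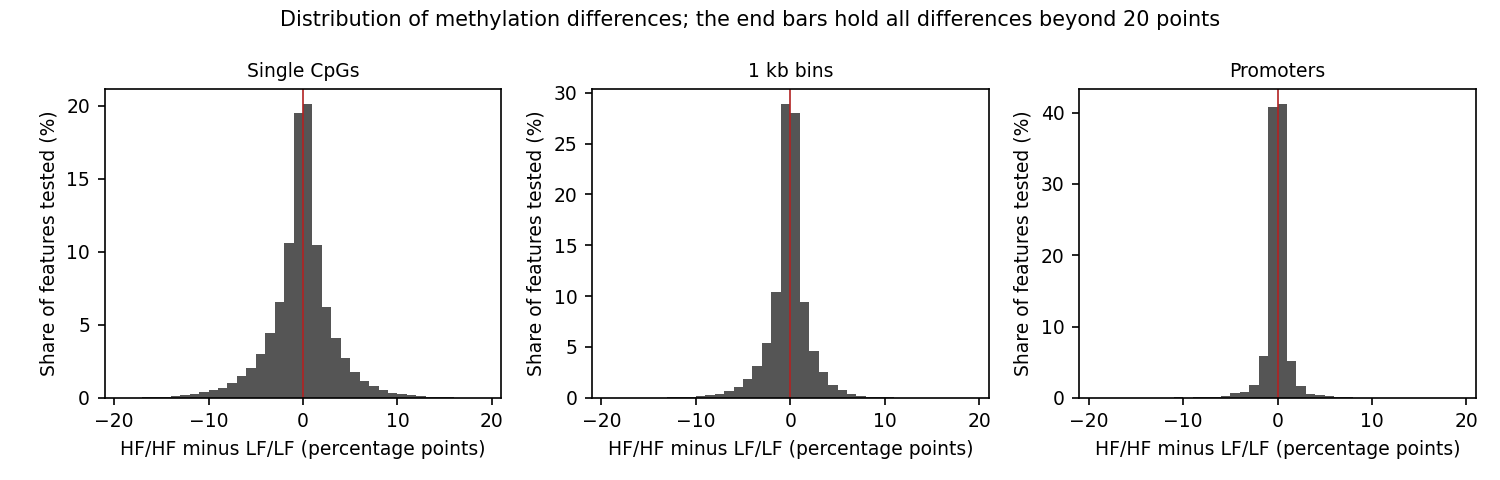
Share of features tested, in percent, by the difference in methylation between HH (HF/HF) and LL (LF/LF) in steps of 1 percentage point, for single CpGs, 1 kb bins and promoters. All 3 are centred near 0 (medians -0.0648, -0.0541 and -0.00784), and 95% of the differences lie from -7.82 to 6.89 for CpGs, from -5.26 to 4.22 for bins and from -2.74 to 2.20 for promoters.

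The histogram of differences shows the same narrowing from single CpGs to promoters. The features named in the following were taken by rank, as the CpGs, bins and promoters with the smallest p-values or largest differences in each direction and the first promoter of each gene list, 56 in all. None passed an FDR of 5% with all 20 mice, and their p-values and differences are extremes of many tests.

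Scara5 encodes a scavenger receptor of class A that takes up ferritin and so brings iron into cells. Its exon 8 of 9 (chr14:66378422-66378616) holds 5 tested CpGs on the plus strand of a single MspI fragment of 117 bp, at 66378478, 66378499, 66378502, 66378522 and 66378525, all capitalised in the Scara5 sequence. Reads of the fragment cover all of them, so they are not independent of each other. At 66378499, the CpG with the smallest p-value of all, the HH mice ran from 23.5% to 51.9% (median 36.7%) and the LL mice from 53.3% to 80% (median 64.0%). Every HH mouse with a value lay below every LL mouse. The means were 37.1% ± 9.29 (SD, 8 of 10 mice with a value) and 66.0% ± 7.88 (SD, n = 10), on 10 to 51 reads per mouse. The difference was -29.0 percentage points (95% confidence interval -37.5 to -20.4), with an exact permutation p of 2.29e-05 and an FDR of 0.540.

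At 66378525 the largest difference of any tested CpG was seen. The HH mice ran from 40% to 96.3% (median 54.0%) and the LL mice from 77.8% to 97.2% (median 87.5%). The groups overlapped through mouse 52 alone, which was at 96.3% while the other 7 HH mice with a value ran from 40% to 60.7%. The means were 57.7% ± 16.9 (SD, 8 of 10 mice) and 87.9% ± 7.09 (SD, 9 of 10 mice), or -30.3 percentage points apart (exact permutation p = 0.000782). Without mouse 52 the difference was -35.8 percentage points and the FDR 0.0197, and this was then the only CpG with an FDR <5%. Mouse 52 held the HH value most against the difference, and the other 19 of 20 runs that left out a mouse gave no CpG. With all 40 mice in a single model, which pools the spread of the 4 groups, the FDR of the difference between HH and LL at this CpG was 0.0677.

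The other 3 CpGs of the fragment had lower means in HH as well. At 66378478 they were 36.4% ± 16.5 in HH and 54.8% ± 14.1 in LL, at 66378502 44.7% ± 18.1 and 68.0% ± 10.7, and at 66378522 50.7% ± 15.0 and 77.4% ± 14.2. Mouse 52 was the highest HH mouse at each of the 5 CpGs, at 63.0%, 51.9%, 81.5%, 84.6% and 96.3% in order along the fragment. Its label gives HF for both diets, its reads were 26 to 27 at these CpGs, and at 4 of the 5 it lay within the range of the LL mice. Whether its sample or diet label was exchanged was not tested, and the HH values at this exon rest on the label as given. Around the fragment the difference was smaller or had the other sign. In the intron in front of the exon, HH and LL were at 47.1% and 51.1% (66378373) and at 38.6% and 37.1% (66378394). On the minus strand of the exon they were at 43.2% and 58.7% (66378446) and at 50.4% and 43.6% (66378463).

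The animals that changed diet at weaning entered the tests above only through the model of all 40 mice and the filter on coverage. At 66378525 the HL mice were at 92.5% ± 5.85 (SD, n = 10) and the LH mice at 68.6% ± 7.32 (SD, n = 10). At 66378522 they were at 86.7% ± 6.24 and 58.7% ± 5.83, and at 66378499 at 79.3% ± 11.5 and 51.8% ± 10.4. At these CpGs the mice fed LF after weaning had higher means than the mice fed HF for either maternal diet. The 3 CpGs had a permutation p of 3.0e-05, 3.0e-05 and 7.0e-05 between HL and LH, or 0.000840, 0.000840 and 0.00131 after adjustment over the 56 named features, and they were the only ones below 5%. The 4 CpGs around the fragment also had higher means in HL than in LH, at 65.2% and 42.0% (66378373), 49.6% and 33.9% (66378394), 67.8% and 45.2% (66378446) and 64.8% and 44.6% (66378463), which were not tested. The Scara5 exon had already been singled out from these 40 mice in an earlier analysis, so the HL and LH mice are not independent evidence for it.

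**Figure D3:**
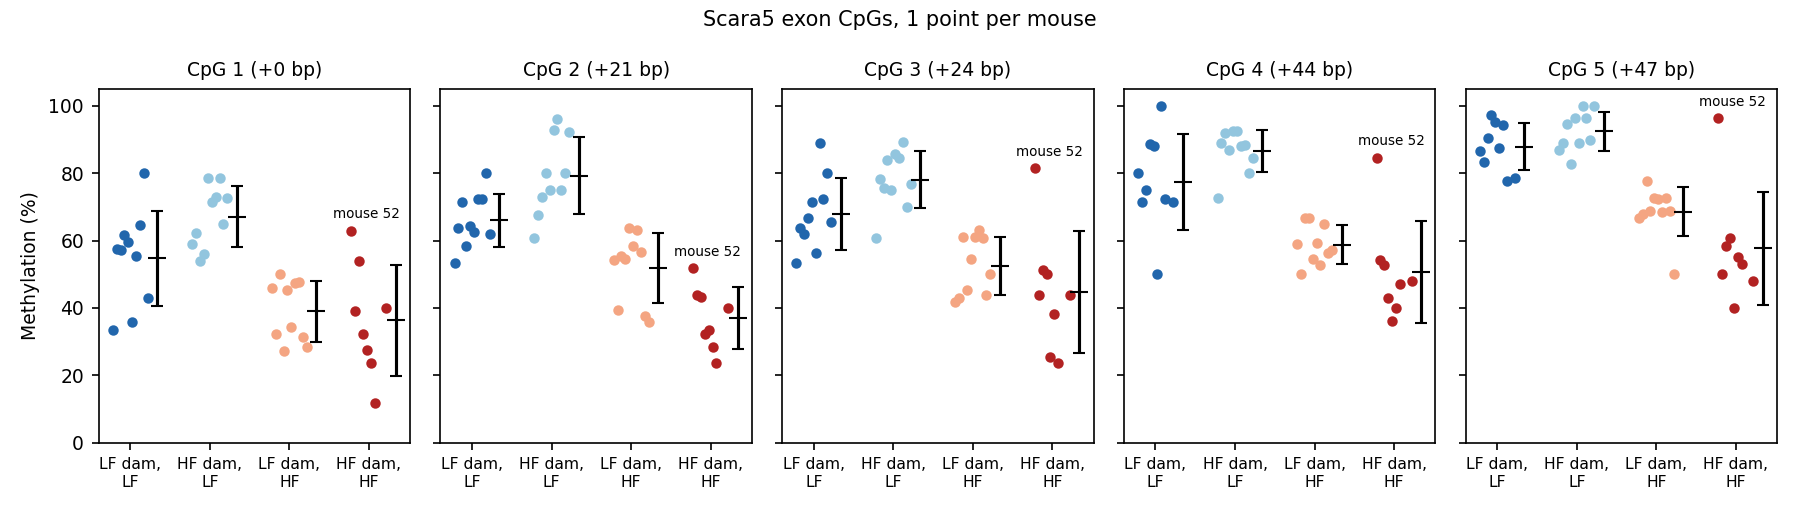
Methylation in percent of the 5 plus-strand CpGs of the Scara5 exon, titled by their distance in bp from the first, in each mouse by maternal and post-weaning diet. Points are mice, bars are the mean ± SD of the mice with a value, and mouse 52 at 96.3% at the last CpG lies among the LL mice (77.8% to 97.2%) while the other HH mice are at 40% to 60.7%.

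The plot of the Scara5 CpGs also shows that the mean level went up along the fragment in both groups, from 36.4% at the first CpG to 57.7% at the last in HH and from 54.8% to 87.9% in LL.

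Igf2r and Slc38a4 are imprinted in the mouse. Igf2r encodes the receptor that binds insulin-like growth factor 2 for degradation, is expressed from the maternal allele, and holds the start of the antisense noncoding transcript Airn, whose gene body runs on past the Igf2r start. Its promoters had 9 tested CpGs, and the HH mice ran from 37.1% to 56.4% (median 42.8%) and the LL mice from 43.0% to 66.7% (median 54.5%). The groups overlapped, and 1 HH mouse was above the median of LL. The means were 43.9% ± 6.55 (SD, 9 of 10 mice) and 55.2% ± 8.91 (SD, 9 of 10 mice), a difference of -11.3 percentage points (95% confidence interval -19.1 to -3.5, exact permutation p = 0.00864, FDR 0.904). HL and LH lay between at 48.7% and 49.3%.

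The difference was seen at the 7 CpGs shown in the Igf2r sequence, which lie upstream of the start at 12962530 on the minus strand and in an intron of Airn. They also fall in the promoter window of a 7SK RNA gene annotated there. The 5 read on the minus strand were at 27.6% to 41.6% in HH and 40.8% to 62.9% in LL, with differences of -13.2 to -21.3 percentage points. The 2 read on the plus strand differed by -6.29 and -8.95. At an alternative start inside the gene, CpG 12944192 was at 85.2% in HH and 88.3% in LL, and CpG 12944230 at 27.3% and 25.6%.

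Slc38a4 encodes an amino acid transporter that is abundant in liver. In the bin chr15:96836001-96837000, which holds 4 tested CpGs in and beside exon 13, the HH mice ran from 29.2% to 49.4% (median 37.2%) and the LL mice from 9.09% to 29.7% (median 28.4%). Only the lowest HH mouse fell within the LL range. The means were 37.3% ± 6.66 (SD, 8 of 10 mice) and 23.1% ± 8.18 (SD, 8 of 10 mice), 14.2 percentage points apart (95% confidence interval 6.23 to 22.2, exact permutation p = 0.000311, FDR 0.857). All 4 CpGs were higher in HH, by 5.70 to 17.7 percentage points. HL and LH were at 31.3% and 34.7%, both closer to HH.

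Among the other imprinted loci the promoters at intermediate level did not reach an unadjusted p below 0.05. Peg10 and Sgce, which share 12 CpGs, were at 46.4% in HH and 46.1% in LL, Gnas at 46.5% and 46.3%, Mcts2 at 48.8% and 50.1%, and Plagl1 at 47.0% and 44.2%. The gaps were wider at Nespas, with 47.4% and 51.1%, and at Nap1l5, with 69.7% and 73.1%. Igf2, the fetal growth factor gene, was at 3.14% ± 0.767 in HH and 2.29% ± 0.853 in LL over 17 CpGs, a difference of 0.852 percentage points (95% confidence interval 0.0897 to 1.61). Of 16 imprinted promoters tested, 1 was higher (Igf2) and 1 lower (Igf2r) at unadjusted p below 0.05, against 2.45% and 2.59% of all promoters, and the median difference was 0.0697 percentage points.

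Gata4 encodes a zinc finger transcription factor of endoderm and heart development that is also expressed in liver. Exon 2 (chr14:63859373-63860482) holds the 8 CpGs capitalised in the Gata4 sequence, and their bin gave the largest difference of any bin towards less methylation in HH. The HH mice ran from 29.4% to 69.6% (median 55.7%) and the LL mice from 58.5% to 99.0% (median 69.4%). The groups overlapped, and mouse 13 at 99.0% stood apart from the other LL mice, whose highest was 78.8%. The means were 53.2% ± 13.4 (SD, 9 of 10 mice) and 71.6% ± 12.7 (SD, 9 of 10 mice), a difference of -18.4 percentage points (95% confidence interval -31.4 to -5.31, exact permutation p = 0.00498, FDR 0.923). Without mouse 13 it was -14.9. Each of the 8 CpGs was lower in HH, by 15.3 to 23.4 percentage points, but they share a fragment and its reads. HL and LH were at 61.7% and 65.3%. The promoter windows of Gata4, with 9 CpGs, were at 25.1% ± 4.46 in HH and 28.5% ± 5.86 in LL, but at 25.8% and 26.1% once each CpG was centred on its mean over the 40 mice, which removes the effect of the CpGs a mouse has covered.

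Gm17721 is a long intergenic noncoding gene on chromosome 15 (38314736 to 38316055, plus strand). CpG 38314452, 284 bp in front of it, had a value in all 20 mice. Values ran in HH from 3.70% to 23.7% (median 9.31%) and in LL from 18.2% to 41.7% (median 30.7%), and 2 HH mice lay within the LL range. The means were 11.9% ± 6.03 (SD, n = 10) and 30.6% ± 7.95 (SD, n = 10), and HH minus LL was -18.8 percentage points (95% confidence interval -25.4 to -12.1, permutation p = 7.0e-05, FDR 0.817). The next CpGs of the fragment, at 38314416 and 38314457, were also lower in HH, at 12.9% and 21.1% and at 2.39% and 6.09%. HL and LH were at 25.7% and 24.1%, both nearer to LL than to HH. The promoter of Gm17721 as a whole was at 9.06% ± 3.73 in HH and 19.3% ± 6.86 in LL (SD, n = 10 each). With a minimum of 20 reads its difference of -10.2 percentage points became -6.20.

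Sirt3 encodes the main deacetylase of mitochondria, which acts on enzymes of fatty acid oxidation, and it shares its promoter with Psmd13, a subunit of the proteasome lid. The 23 CpGs of this promoter on chromosome 7 gave the smallest p-value of any promoter. In HH the level ran from 1.66% to 2.52% (median 2.08%) and in LL from 0.731% to 2.20% (median 1.17%). All LL mice but mouse 15, at 2.20%, were below all HH mice. The means were 2.08% ± 0.301 (SD, n = 10) and 1.17% ± 0.404 (SD, n = 10), 0.911 percentage points apart (95% confidence interval 0.577 to 1.25, permutation p = 0.000110, FDR 0.213). Without mouse 15 the difference was 1.03 percentage points and the FDR 0.00106, the only promoter called. Mouse 15 held the LL value most against the difference, and the other 19 of 20 runs that left out a mouse gave no promoter. HL and LH were at 1.36% and 1.67%. Of the CpGs, with strands counted separately, 12 were higher and 7 lower in HH. The CpG at 148068188 was at 5.39% and 0.444%, on 10 to 72 reads per mouse, so that a few methylated reads per mouse make the difference.

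Foxa2 encodes a forkhead factor that opens chromatin at liver enhancers. The 3 CpGs shown in its sequence were at 5.37% ± 3.78 (SD, 8 of 10 mice) in HH and 1.67% ± 0.820 (SD, 9 of 10 mice) in LL (exact permutation p = 0.00103, FDR 0.944). The HH mice ran from 1.39% to 13.9% (median 5.06%) and the LL mice from 0% to 2.90% (median 1.59%). Mouse 182 at 13.9% stood apart, and without it the difference went from 3.70 to 2.48 percentage points. At 147872757 every LL mouse was at 0% and the HH mice averaged 4.43% ± 2.72.

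**Figure D4:**
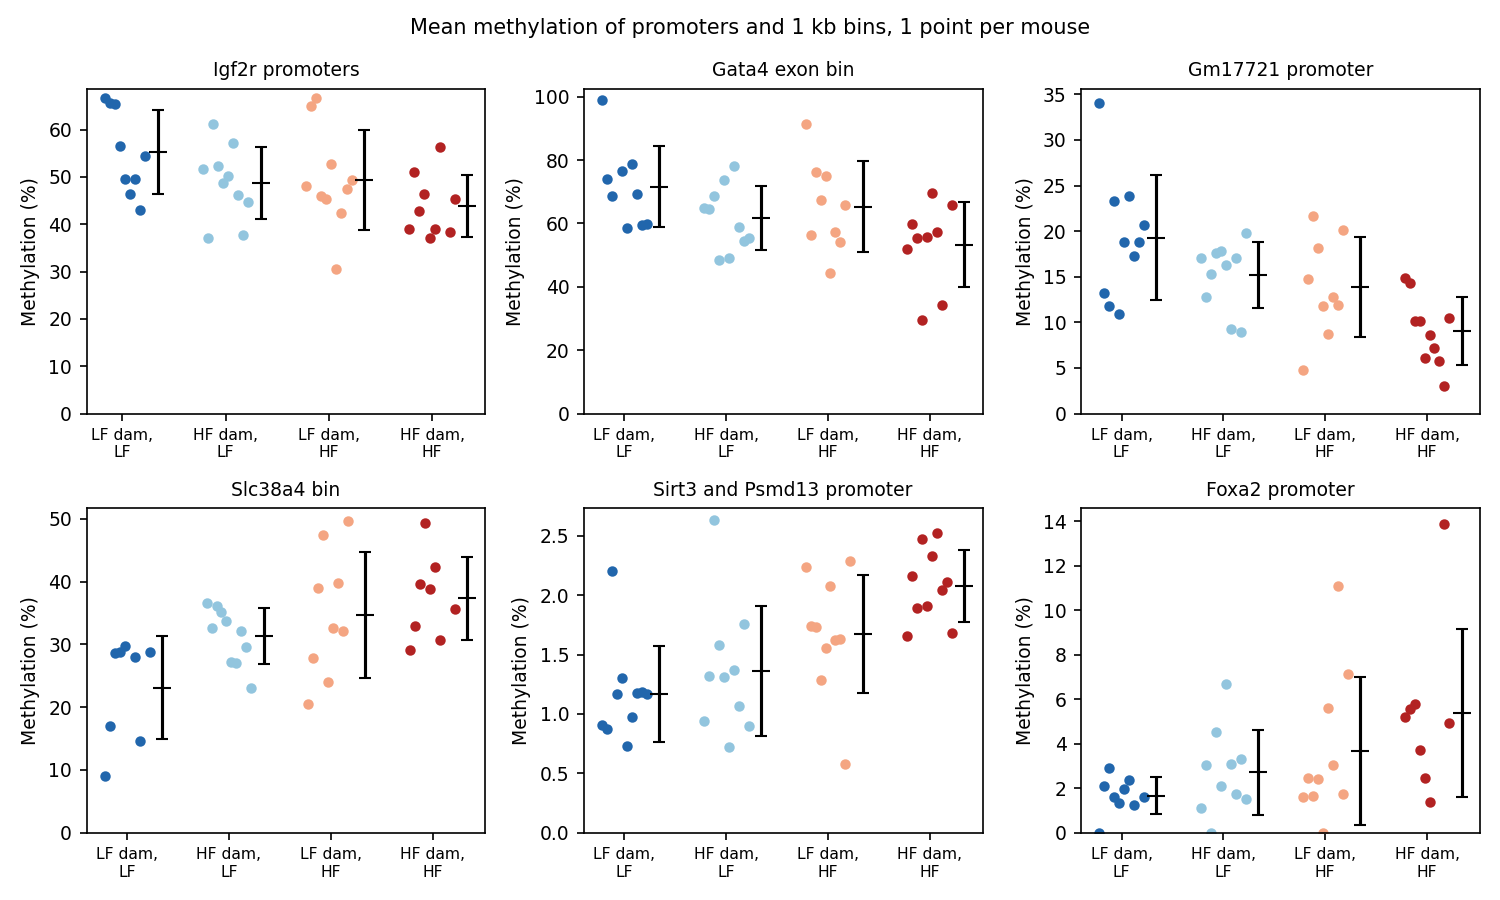
Mean methylation in percent of the Igf2r promoters, the Gata4 exon bin, the Gm17721 promoter, the Slc38a4 bin, the shared promoter of Sirt3 and Psmd13 and the Foxa2 promoter, in each mouse by maternal and post-weaning diet. Points are mice, bars are the mean ± SD of the mice with a value, and in the first 3 panels LL is highest on average and HH lowest (Igf2r 55.2% and 43.9%), while in the other 3 LL is lowest and HH highest (Slc38a4 23.1% and 37.3%).

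The plot of these 6 regions puts the mice that changed diet beside them. Their means lay between those of LL and HH at each of the 6, which is a description of regions chosen for a wide gap between LL and HH. Of the 56 named features, some of which share CpGs, 2 apart from the 3 Scara5 CpGs had a permutation p below 0.05 between HL and LH, Nr1d1 (0.0174) and a bin at Zmynd19 (0.0463), and neither was below 0.05 after adjustment (0.244 and 0.518).

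At 9 of the 238989 CpGs, 0.00377%, the HH and LL mice did not overlap, 1 with HH higher and 8 with HH lower, beside the 3.95% with unadjusted p below 0.05. They were the Scara5 CpG, CpGs near Gal3st3, Trpc4, Laptm5 and 3110070M22Rik, in introns of Aars and Vapb, in an untranslated exon of Rhof, and far from genes on chromosome 9. Only the CpG near 3110070M22Rik, on chromosome 13, had values in all 20 mice, at 59.7% ± 11.0 and 77.7% ± 5.51. The CpG on chromosome 9, at 46487698, was at 53.1% ± 6.09 (SD, 9 of 10 mice) in HH and 69.0% ± 4.50 (SD, 9 of 10 mice) in LL, with HH from 45.5% to 60% and LL from 62.5% to 76.2%.

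The CpG near Gal3st3, a gene for a sulfotransferase that modifies galactose, lay in front of the gene on chromosome 19, at -1246 bp from its start. It was at 78.8% ± 5.48 in HH and 94.0% ± 5.24 in LL, and the CpG 3 bases on at 79.2% and 90.4%. The Aars gene encodes the enzyme that charges alanine tRNA, and its intronic CpG was at 88.7% ± 3.86 in HH and 98.6% ± 2.71 in LL. CpG 113578211, at the other end of the same fragment, had the opposite sign at 95.8% and 88.1%. Near Trpc4, a calcium channel gene, the CpG with HH higher was at 11.3% ± 4.77 and 2.37% ± 2.32.

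Other CpGs that ranked among the first had HH higher. In front of the homeobox gene Hoxc5, CpG 102842500 on chromosome 15 was at 7.57% and 1.04%, and in an intron of Msh6, a DNA mismatch repair gene, CpG 88375050 on chromosome 17 was at 7.85% and 1.12%. In an intron of Dclk1, a kinase gene, CpG 55136051 on chromosome 3 was at 97.4% and 87.5%. Far from genes, CpG 3286854 on chromosome 4 was at 99.2% ± 1.68 and 92.1% ± 3.38. In the promoter window of the noncoding gene 1700017J07Rik, CpG 168803711 on chromosome 2 was at 42.0% and 29.0%, while CpG 168803816, at the other end of its fragment, had the opposite sign at 66.1% and 78.8%. Among CpGs with values in at least 8 mice of each group, the 3 largest differences with HH higher were seen at Mbp, the myelin basic protein gene (79.2% and 58.0%, with HH mouse 181 at 60%), at CpG 99961895 on chromosome 6 (66.7% and 45.0%, with HH mouse 123 at 35%) and in an intron of Siglec15, a lectin gene (48.4% and 27.4%). At levels close to 0 or 100% such a difference is one of a few reads per mouse.

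Bins repeated some of these sites and added others. A bin in an intron of Ttn, the gene of the muscle protein titin, was at 95.3% ± 1.29 in HH and 98.8% ± 1.03 in LL, without overlap (8 of 10 mice each, exact permutation p = 0.000155, FDR 0.464). A bin with 6 CpGs in the last exon of Il17rc, an interleukin receptor gene, was at 0.386% ± 0.405 and 2.03% ± 0.724. At Tmem120a the means were 92.4% and 96.0%, in an intron of Rnf150 63.1% and 81.4%, in an intron of Fez2 49.1% (with mouse 52 at 68.8% and the other HH mice at 40.9% to 54.5%) and 66.8%, and in a bin between genes on chromosome 19, from 3205001, 67.6% and 79.6%. Bins with HH higher lay at Camk2b, a neuronal kinase gene (64.7% and 47.2%), behind Tcfap2c (60.4% and 46.3%), at 5430437P03Rik (92% and 87.6%), at the start of the forkhead gene Foxo6 (5.28% and 2.5%), in the first exon and intron of Reck (1.28% and 0.458%) and at the start of Zmynd19 (2.04% and 0.844%).

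The promoters with the smallest p-values were mostly unmethylated, and apart from Gm17721 their differences were of 0.841 to 3.67 percentage points in size. Besides Sirt3, those higher in HH were St3gal3, a sialyltransferase gene (1.63% and 0.791%), Tgoln1, of the trans-Golgi network (1.46% and 0.175%), Gse1 (2.38% and 1.08%) and 1810058N05Rik, which shares its CpGs with Rap1gap (8.23% and 4.56%). Those lower in HH were B4galnt4, a glycosyltransferase gene (3.83% and 6.08%), Prrxl1, a homeobox gene of sensory neurons (4.35% and 7.23%), and Rngtt, the mRNA capping enzyme gene, which shares 4 CpGs with Gm11934 (0.774% and 3.22%). Their FDR ran from 0.213 for Sirt3 to 0.834 for Gse1, and the ranges of the groups overlapped at each.

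The genes of pathways and cell types that a fatty liver engages were read from lists. Over all 10565 promoters the median difference was -0.00784 percentage points, and 2.45% were higher and 2.59% lower at unadjusted p below 0.05. Cholesterol synthesis and uptake had 13 tested promoters, with a median difference of -0.0188. Sqle was at 2.09% and 2.03% and Srebf2, the master regulator of the pathway, at 1.17% and 1.04%.

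Fatty acid synthesis had 15 promoters with 0 in either direction. Fasn, the fatty acid synthase, was at 1.24% ± 0.524 and 1.18% ± 0.474 over 29 CpGs, Srebf1 at 1.27% and 1.45%, Scd1, a desaturase, at 2.25% and 2.70%, and Acacb, the mitochondrial acetyl-CoA carboxylase, at 14.4% and 11.1%. Fatty acid oxidation and ketogenesis had 10 promoters with 0 in either direction and a median of 0.889. Hadha and Hadhb, subunits of the mitochondrial trifunctional protein with a common promoter, were at 2.57% ± 1.20 and 1.48% ± 1.26, and Ppara, the receptor that drives the pathway, at 2.12% and 2.71%.

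Among 14 nuclear receptor promoters 1 was higher and 0 lower. This was Nr1d1, a circadian repressor, at 2.22% ± 0.959 in HH and 0.871% ± 0.964 in LL (exact permutation p = 0.0103, FDR 0.939), and it was also the 1 of 10 circadian clock promoters. Among 11 promoters of insulin signalling and glucose handling, 1 was higher and 0 lower, the insulin receptor Insr at 2.72% ± 0.815 (SD, 7 of 10 mice) and 0.953% ± 1.05 (SD, 9 of 10 mice), with an exact permutation p of 0.00393 and an FDR of 0.904. Of 13 promoters of hepatocyte transcription factors, Foxa2 was higher and Onecut2 lower, the latter at 1.68% and 2.5%. The lists of bile acid genes (3 promoters), the acute phase response (8) and DNA methylation and methyl donor metabolism (14) had 0 in either direction. Their first members by p-value were Cyp39a1, an oxysterol hydroxylase gene (1.5% and 0.856%), Nfkb2, a subunit of NF-kB (1.47% and 2.38%), and Uhrf1, which recruits the maintenance methyltransferase (2.23% and 1.05%).

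On the last list 2 promoters show how the covered CpGs can set a mean. Mbd3, a subunit of a chromatin remodelling complex, was at 25.8% ± 1.09 in HH and 40.8% ± 29.6 in LL over 15 CpGs, because mice 13 and 100 had values only at methylated CpGs far upstream. When each CpG was first centred on its mean over the 40 mice, Mbd3 was at 25.8% and 25.6%. Dnmt3a, a de novo methyltransferase, went from -4.76 to -0.743 percentage points. Dnmt1, the maintenance methyltransferase, was at 1.89% and 2.16% without centring. Over all promoters, centring left 0 with an FDR <5% and 522 at unadjusted p below 0.05.

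**Figure D5:**
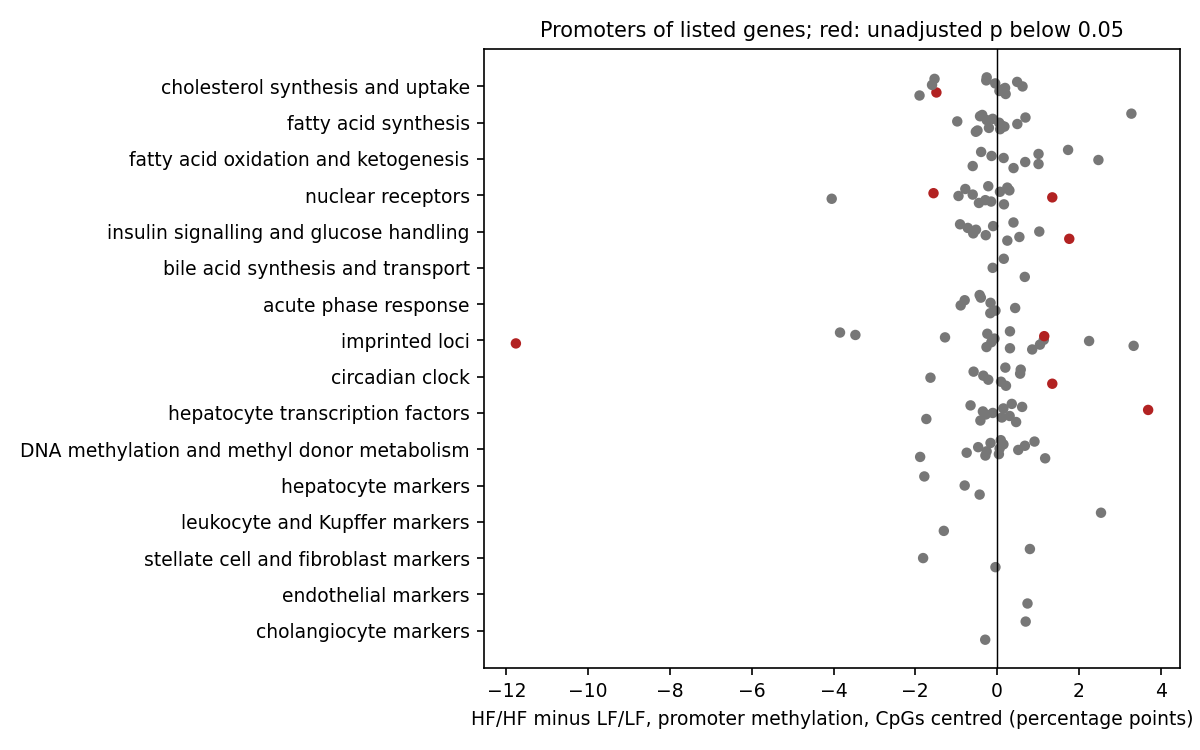
Difference in promoter methylation between HH (HF/HF) and LL (LF/LF) in percentage points, after each CpG was centred on its mean over the 40 mice, for the promoters of each gene list. Each point is a gene, red marks an unadjusted p below 0.05, and most genes lie within 2 percentage points of 0, while Igf2r at -11.8 and Foxa2 at 3.70 are the farthest of the red ones in each direction.

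The plot of the gene lists uses the centred values, by which Vdr was also below 0.05 (-1.55) and Onecut2 was not (-0.648). Few promoters of cell type markers were tested, and 0 of them had p below 0.05 by the test used for all promoters. Of the hepatocyte markers 3 promoters were tested, and all had lower means in HH, Trf at 2.90% and 4.61%, Fga at 16.8% and 18.4% and Apoh at 1.38% and 1.82%. Itgam, a marker of myeloid leukocytes, was methylated, at 86.5% and 83.9%. Stellate cell markers had 3 promoters (Reln at 1.69% and 0.917%, with HH mouse 124 at 4.29% and LL mouse 102 at 2.75%, Des at 4.96% and 4.91%, Lrat at 2.26% and 4.09%), endothelial markers 1 (Kdr at 2.27% and 1.5%) and cholangiocyte markers 2 (Krt7 at 19.9% and 18%, Sox9 at 8.31% and 8.23%). The Krt7 difference was -1.11 percentage points with a minimum of 20 reads, and that of Kdr was 0.0580 with runs as replicates. With so few marker promoters, the part of cell mixture in the differences was not tested.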

How the data were processed

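Liver DNA of 40 male mice was measured by RRBS, and the 20 HH and LL mice were compared. Per the labels and the study's methods, DNA was cut with MspI, size selected, bisulfite treated and sequenced as single-end reads, which were aligned to mm9 with Bismark (version not given in the sources used here). The authors deposited, for each CpG and mouse, counts of methylated and of all reads, with no molecular identifiers, so reads are not independent molecules. The table held 0 columns of samples other than the 40 mice.

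A methylation level is the percentage of methylated reads. Values on fewer than 10 reads were left out, CpGs needed a value in 36 mice, and bins of 1000 bp and promoters (1000 bp upstream to 500 bp downstream of a start in GENCODE M1) needed 3 CpGs, whose levels were averaged per mouse. HH and LL were compared with Student's t-test, as in the study, at features with values in at least 5 mice per group, and p-values were adjusted over all features by the Benjamini-Hochberg method. Single values carry exact permutation tests or, with 10 mice in both groups, permutation tests of 100000 resamples, all two-sided. Welch's test, limma 3.58.1 (R 4.3.3), exact Wilcoxon tests, a quasi-binomial model and other filters were alternatives, some of them chosen after seeing the data. Python 3.11.15, numpy 2.4.6, scipy 1.17.1 and pandas 2.3.3 were used, and the tests were checked on simulated data. Named features were the 5 CpGs, bins and promoters with the smallest p-value in each direction, the 3 CpGs and bins with the largest difference in each direction (at least 8 mice per group), and the first promoter of each gene list. The comparison and the gene lists were chosen with earlier results of these data known. Results for 2 promoters of these lists are not reported here.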

Additional observations from a re-analysis of the deposited data

Results flagged for a closer look

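Of 136 groups of values examined, 18 held a mouse whose gap to its nearest neighbour exceeded Dixon's 95% critical value. Chance flags about 1 in 20 groups, and several of the 18 are the same mouse in overlapping sets of CpGs. Mouse 122 (HH) was apart in 5 of them. Its mean methylation was 38.4% over all CpGs against 39.2% to 39.7% in the other HH mice, 58.4% between genes against 59.8% to 60.9%, 57.1% in introns against 58.0% to 58.9%, and 58.1% at CpGs from 10 to 90% against 60.2% to 61.3%. It also had 17272370 reads at the analysed CpGs, more than any other HH mouse.

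Mouse 52 (HH) was apart at Scara5 66378522, with 84.6% against 36% to 54.3%, and at Scara5 66378525, with 96.3% against 40% to 60.7%. It was also apart in the Fez2 bin, with 68.8% against 40.9% to 54.5%. Among single CpGs, HH mouse 181 was at 60% at the Mbp CpG against 76.2% to 88.2%, and HH mouse 123 at 35% at 99961895 on chromosome 6 against 64.3% to 80%.

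Among promoters, HH mouse 182 was at 13.9% at Foxa2 against 1.39% to 5.80% and HH mouse 124 at 4.29% at Reln against 0.553% to 2.44%. In LL, mouse 13 was at 99.0% in the Gata4 bin against 58.5% to 78.8%, and mouse 211 at 74.3% in the Gal3st3 bin against 86.9% to 95%. Mouse 15 was at 3.51% at Uhrf1 against 0% to 1.43% and at 2.20% at Sirt3 against 0.731% to 1.30%. Mouse 100 was at 4.57% at Hadha against 0% to 2.21%, and mouse 102 at 2.75% at Reln against 0% to 1.26%.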

How the results depend on the processing

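No CpG passed an FDR of 5% under Welch's test, limma, the exact Wilcoxon test or the quasi-binomial model, and the count was 2 with a minimum of 20 reads and 0 to 1 when a mouse was left out (1 without HH mouse 52). No bin passed under any alternative run, and 0 to 1 promoters did when a mouse was left out (1 without LL mouse 15). Mice 52 and 15 each held the value of their group most against the difference at the feature then called. CpGs at unadjusted p below 0.05 numbered 4735 with a minimum of 20 reads, 338 with 30 reads and 2182 when a total in all 20 mice was required, since fewer CpGs were then tested, and 9098 to 9623 without a mouse. Bins numbered 838 with 5 or more CpGs, again of fewer tested, and 1517 to 1716 without a mouse, and promoters 515 to 564. The difference in mean methylation was -0.186 to -0.0430 percentage points without a mouse and -1.92 when reads were pooled. For promoter CpGs it was -0.109 to -0.0690 without a mouse, with an adjusted p below 0.05 without mouse 124, 181 or 183. Between genes it was -0.150 to 0.127, above 0 without mouse 122 or 134, and at CpGs below 10% it was -0.0189 to 0.00327, above 0 without mouse 122, 133 or 210. The difference in reads per mouse was -244126 to 1592150, below 0 without mouse 122. For the 56 named features, 237 alternative values kept their sign except the Krt7 promoter, at -1.11 percentage points with a minimum of 20 reads, and none of those from other read minimums, centring or runs passed an FDR of 5%, while leaving out a mouse brought Scara5 66378525 and the Sirt3 promoter below it. Several differences kept their sign but moved in size by over 1.5 times. With a minimum of 20 reads the Gm17721 promoter went from -10.2 to -6.20 percentage points, Rngtt and Gm11934 from -2.45 to -1.43, Foxa2 from 3.70 to 2.44, the Zmynd19 bin from 1.20 to 0.691, Uhrf1 from 1.18 to 0.469, Nfkb2 from -0.914 to -1.79 and Reln from 0.774 to 0.460. With runs as replicates Kdr went from 0.764 to 0.0580, and after centring Krt7 went from 1.91 to 0.701. Without a mouse the lowest values were 0.719 for Uhrf1 (mouse 181), 0.564 for Krt7 (mouse 124), 0.450 for Reln (mouse 124) and 0.509 for Kdr (mouse 173), and the highest for Krt7 was 3.14 (mouse 181). The cause of these changes was not tested beyond the number of features. The median half-width of the unadjusted 95% interval was 12.2 percentage points for CpGs from 30 to 70% and 2.60 for CpGs below 10%. Smaller differences were mostly not detectable, and larger ones could also miss an FDR of 5%. At Scara5 66378499 a difference of -29.0 percentage points had an FDR of 0.540. No paired analysis was possible, because HH and LL mice were born from dams on different diets and so share no litter. The labels give no other pairing.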
